A study of Saccharomyces cerevisiae with 40 samples.

Results

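The genes of inositol and phospholipid synthesis were described here in a cross of a wine yeast derivative with a laboratory strain of *Saccharomyces cerevisiae*. The 9 genes are *INO1*, *INO2*, *INO4*, *OPI1*, *CHO1*, *PSD1*, *CHO2*, *OPI3* and *ITR1*, of 4388 rows in the expression table, and each was found in 1 row with no missing value. They were given by name, and the list was chosen by the large difference in *INO1* between the parents, so the values of the 9 genes in the parents are a description, and how many passed a threshold is given only beside the share of all rows. As far as its source states, neither expression over the segregants nor the fermentation traits entered that choice.

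The arrays covered 5 independent cultures of 59A, a haploid (MATa; ho) derived from the commercial wine yeast EC1118, 5 independent cultures of S288C (MATα; SUC2; gal2), the laboratory strain of the reference genome, and 1 culture of each of 30 haploid segregants of their cross, which came from 21 asci. All cultures fermented the synthetic grape must MS300 at 28 °C, and RNA was taken at 50% of the fermentation, a release of 45 g CO2. 59A is 1 haploid of a heterozygous diploid, so it carries only part of the variation of EC1118. Each value is the log2 ratio of a culture to a pool of the RNA of all 30 segregants, averaged by the authors over 2 technical hybridisations. A value of 0 means equal normalized signal of culture and pool. It is not the mean of the segregants, which need not lie on both sides of it (*STE3*, the a-factor receptor gene, reached from 0.16 to 2.09 over the segregants, with a median of 1.24), and ratios of different genes say nothing of which of these genes is the more abundant.

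The direction of the ratio, culture over pool, is likely but is not stated in the table. It rests on the *ASP3* asparaginase genes, which the study describes as lost from wine yeast and whose 4 rows were lower in 59A by 1.03 to 1.14, and on the a-factor genes *MFA1* and *MFA2*, higher in the MATa parent 59A by 1.04 and 1.19. Of the other mating type genes measured, the receptor gene *STE2* was higher in 59A by 0.53, and *STE6* (0.22), *MFALPHA1* (-0.25), *MFALPHA2* (-0.22) and *STE3* (0.08) had differences, 59A minus S288C, that did not pass the adjusted p of 0.01 (limma). Over the 200 rows of widest spread, moreover, the mean of the unlogged ratios over the segregants lay nearer to 1 in this direction (0.18 on the log2 scale) than in the other (0.24). The lowest correlation between 2 segregants over all rows was r = -0.44, with the dyes stated to run alike on all arrays. Sample RNA always carried Cy3, so a dye effect particular to a gene would shift that gene on all arrays alike. In 64 rows all 10 parental arrays lay below all segregants and in 10 rows above them, so that a strain effect and an effect of the set of arrays cannot be told apart when the parents are set against the segregants.

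Inositol is the head group of phosphatidylinositol and the precursor of phosphoinositides, inositol phosphates and yeast sphingolipids. Yeast makes it from glucose 6-phosphate through *INO1* or takes it up through *ITR1*. The Ino2-Ino4 activator binds a shared promoter element of these genes and of the genes for phosphatidylserine, phosphatidylethanolamine and phosphatidylcholine synthesis, and Opi1 represses them when inositol is plentiful. *INO1* is known as one of the most strongly regulated genes of this group.

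*INO1*, the gene of inositol-3-phosphate synthase, was the member that separated the parents most. Its log2 ratios were 0.96, 0.86, 1.21, 0.97 and 1.18 in the 59A cultures, against -0.76, -0.61, -0.77, -0.89 and -0.90 in the S288C cultures. Every 59A culture was above 0 and every S288C culture below it, and the gap between the groups was much wider than the spread within either. The means were 1.03 ± 0.15 in 59A and -0.79 ± 0.12 in S288C (SD, n = 5 each), a difference of 1.82 (standard error 0.08) or a ratio of 3.53. By size this was the 37th largest difference of the table. As in any bulk culture, a lower level in each cell and a smaller share of cells with the transcript cannot be told apart.

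**Figure D1:**
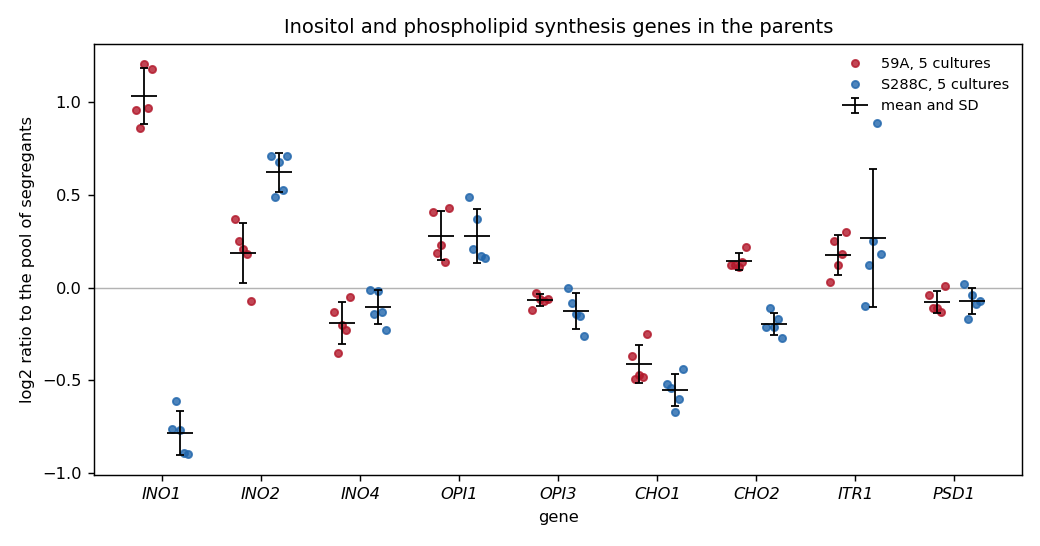
Log2 ratio to the pool of segregants (vertical axis) of the 9 genes (horizontal axis) in each of 5 59A cultures (red, left) and 5 S288C cultures (blue, right). Bars are means with the SD. *INO1* lies near 1.03 in 59A and -0.79 in S288C, and the other 8 genes differ by 0.43 or less in size.

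The regulators of *INO1* did not share its pattern. *INO2*, the subunit of the activator that carries its activation domains, had log2 ratios of 0.37, 0.25, 0.21, 0.18 and -0.07 in 59A, against 0.71, 0.49, 0.68, 0.53 and 0.71 in S288C. Its cultures did not overlap and it stood lower in 59A, by 0.43 (standard error 0.08), the opposite side from *INO1*. *INO4*, the partner of *INO2* in DNA binding, had -0.13, -0.35, -0.20, -0.23 and -0.05 in 59A, and -0.01, -0.14, -0.02, -0.13 and -0.23 in S288C. These cultures overlapped. *OPI1*, the repressor, had 0.41, 0.19, 0.23, 0.14 and 0.43 in 59A, and 0.49, 0.21, 0.37, 0.17 and 0.16 in S288C. Both strains averaged 0.28, with SDs of 0.13 in 59A and 0.14 in S288C.

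Among those of the 9 genes that code for enzymes from phosphatidylserine to phosphatidylcholine, *CHO2* alone separated the parents. *CHO2*, which methylates phosphatidylethanolamine, had 0.12, 0.12, 0.11, 0.14 and 0.22 in 59A, against -0.21, -0.11, -0.21, -0.17 and -0.27 in S288C. All 59A cultures stood above all S288C cultures, with a difference of 0.34 (standard error 0.05), a ratio of 1.26. *OPI3*, the methyltransferase of the following steps, had -0.12, -0.03, -0.06, -0.07 and -0.06 in 59A, and 0.00, -0.08, -0.14, -0.15 and -0.26 in S288C. *CHO1*, the phosphatidylserine synthase, had -0.37, -0.49, -0.47, -0.48 and -0.25 in 59A, and -0.52, -0.54, -0.67, -0.60 and -0.44 in S288C. *PSD1*, the mitochondrial phosphatidylserine decarboxylase, had -0.04, -0.11, -0.11, -0.13 and 0.01 in 59A, and 0.02, -0.17, -0.04, -0.09 and -0.07 in S288C. The cultures overlapped for *OPI3*, *CHO1* and *PSD1*, whose differences were 0.06, 0.14 and -0.01. Outside the 9 genes, the other phosphatidylserine decarboxylase gene *PSD2*, named after its values were seen, also separated the parents. All its 59A cultures stood below all its S288C cultures (difference -0.36, limma adjusted p = 0.00063).

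*ITR1*, the main inositol transporter, had 0.03, 0.25, 0.12, 0.18 and 0.30 in 59A, and -0.10, 0.12, 0.25, 0.89 and 0.18 in S288C. The strains overlapped, and replicate 4 of S288C lay well above the others. With that culture the difference was -0.09, and without it 0.06. It was left out after its value was seen, and the rule used further below for a culture that stands apart did not flag it.

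At an adjusted p under 0.01 (limma, Benjamini-Hochberg over all 4388 rows), 2 of the 9 genes stood higher in 59A (*INO1* and *CHO2*), beside 17.1% of all rows, and 1 stood lower (*INO2*), beside 13.7% of all rows. The cultures of the 2 strains did not overlap for these 3 genes, beside 33.5% of the rows measured in all 10 cultures. Because this contrast chose the list, nothing is read from these counts. Leaving *INO1* aside, the median size of the difference was 0.09 over the other 8 genes and 0.16 over all rows. In the plot of the 9 genes in the parents, the differences of these 8 lie between -0.43 and 0.34.

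The other genes of lipid and inositol metabolism were taken from 7 lists, 56 of whose 81 genes were measured. Of these 56, 14 were higher in 59A, beside 17.1% of all rows, and 8 lower, beside 13.7%, with 34 not past the threshold. The same shares of all rows stand beside the counts of each list below, whose genes are few. For the 56 genes together, the median difference was 0.09, beside 0.01 over all rows. All 3 measured genes of inositol and choline transport other than *ITR1* were higher in 59A. *ITR2*, the minor inositol transporter, averaged -0.18 ± 0.05 in 59A and -0.56 ± 0.04 in S288C (SD, n = 5 each; difference 0.39, limma adjusted p = 2e-05). *GIT1*, the permease of glycerophosphoinositol, averaged -0.25 ± 0.11 in 59A and -0.56 ± 0.08 in S288C (difference 0.31, limma adjusted p = 0.0015). The choline permease *HNM1*, named after its values were seen, was higher in 59A by 0.25 (limma adjusted p = 0.0027).

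Of 6 further regulators of *INO1* transcription, 2 were higher in 59A and none was lower. *ISW2*, the ATPase of a chromatin remodelling complex that represses *INO1*, averaged 0.63 ± 0.07 in 59A and 0.20 ± 0.07 in S288C (difference 0.43, limma adjusted p = 2.8e-05). *SCS2*, which holds Opi1 at the membrane of the endoplasmic reticulum, averaged 0.06 ± 0.07 in 59A and -0.26 ± 0.06 in S288C (difference 0.31, limma adjusted p = 0.00026).

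Of 12 other phospholipid synthesis enzymes, 3 were higher in 59A and 3 were lower, with a median difference of 0.02. *PGS1*, which makes the first intermediate specific to cardiolipin, averaged -0.14 ± 0.11 in 59A and 0.48 ± 0.17 in S288C (difference -0.62, limma adjusted p = 5.1e-05). The lysophospholipid acyltransferase *ALE1* was lower in 59A by 0.36 (limma adjusted p = 0.0054). Of 5 phospholipase genes, 3 were higher and 1 was lower in 59A. The phospholipases B went opposite ways, *PLB2* being higher in 59A by 0.58 (limma adjusted p = 1.9e-06) and *PLB3* lower, with a difference of -0.33 (limma adjusted p = 0.00029).

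Of 10 genes of fatty acid synthesis and activation, none was higher in 59A and 1 was lower. That gene, *OLE1*, the stearoyl-CoA desaturase, averaged -0.03 ± 0.18 in 59A and 1.26 ± 0.21 in S288C (difference -1.29, limma adjusted p = 7.7e-07). *FAS1*, the beta subunit of fatty acid synthase, differed by 0.28 and did not pass the threshold (limma adjusted p = 0.03). Of 11 sphingolipid genes, 3 were higher in 59A and none was lower. They included *KEI1*, a subunit of inositolphosphorylceramide synthase (0.86 ± 0.28 in 59A and 0.06 ± 0.08 in S288C, difference 0.80, limma adjusted p = 8.7e-05), and *TSC10*, the ketosphinganine reductase (difference 0.31, limma adjusted p = 0.0069).

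Of 9 genes of phosphoinositides and inositol phosphates, none was higher in 59A and 3 were lower. *PLC1*, the phospholipase C that cleaves phosphatidylinositol bisphosphate, lay at -2.32 in every 59A culture, the lowest value that an array holds, and averaged 0.46 ± 0.26 in S288C. Its difference of -2.77, held at that lowest value, was the largest of the table in size (limma adjusted p = 7.3e-10), and the segregants reached from -1.74 to 1.16, none as low as 59A. *VIP1*, an inositol pyrophosphate kinase, averaged -0.82 ± 0.08 in 59A and -0.07 ± 0.20 in S288C (difference -0.75, limma adjusted p = 1.5e-05).

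Over the 30 segregants *INO1* varied more than nearly every other gene. Its log2 ratio had a lowest value of -1.71, a median of -0.29 and a highest value of 1.46, with an SD of 1.01, the 12th largest of the table, where the median SD of a row was 0.29. Some values lay near the end of the scale. At its lowest rank *INO1* was row 7 from the bottom of a segregant's array, and on 5 arrays it was among the 10 lowest or highest rows. The SD between cultures of 1 parent was 0.14. Of the segregants, 3 lay above all 59A cultures (22d, 22a and 1b) and 7 below all S288C cultures (14a, 25a, 22c, 28b, 31b, 19c and 29c). A further 5 lay within the range of the 59A cultures, 4 within that of the S288C cultures and 11 between the parents. The widest gap ran from -0.10 (17a) to 0.42 (9a), with 18 segregants under it and 12 over it. The values of the segregants thus reached beyond those of both parents, further on the low side. Strain and set of arrays cannot be told apart in this comparison, as stated above, and each segregant is 1 culture.

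**Figure D2:**
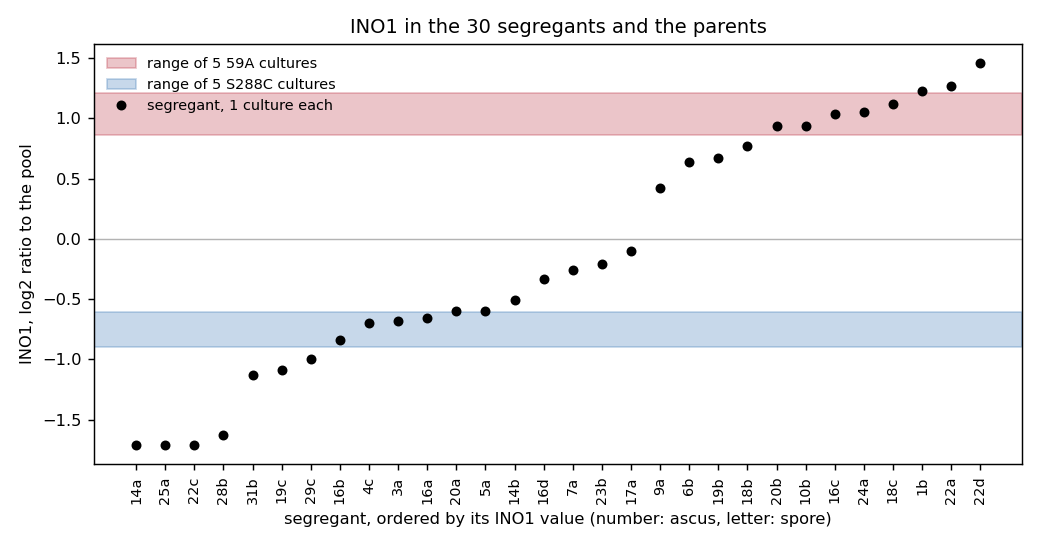
*INO1* log2 ratio to the pool (vertical axis) in each of 30 segregants, ordered by value (horizontal axis), with the range of the 5 59A cultures in red and of the 5 S288C cultures in blue. 3 segregants lie above the red band, 7 below the blue band, and the widest gap lies between -0.10 and 0.42.

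Sister spores of 1 ascus could differ widely in *INO1*. In the complete tetrad of ascus 16 the values were -0.66 (16a), -0.84 (16b), 1.04 (16c) and -0.33 (16d), so that 1 spore stood high and 3 low. The 3 spores of ascus 22 had 1.27 (22a), -1.71 (22c) and 1.46 (22d), a span of 3.17 that reaches from the lowest to the highest end of the population. In the pairs of asci 14, 19 and 20 the spores differed by 1.20, 1.76 and 1.54, and in the pair of ascus 18 by 0.35.

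The other 8 genes varied less. *INO2* had the widest spread among them, with a lowest value of -0.74 (10b), a median of 0.04 and a highest of 0.74 (5a), and an SD of 0.35. *INO4* ranged from -0.87 (14a) through a median of 0.07 to 0.55 (25a), and *OPI1* from -0.30 (16d) through 0.13 to 0.77 (14a). Segregant 14a thus held the lowest *INO4* and the highest *OPI1* value together with an *INO1* value at the lowest end. Segregant 25a shared the *INO1* value of -1.71 but held the highest *INO4* value, with *OPI1* at -0.17.

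*CHO2* ranged from -0.45 (25a) through a median of -0.03 to 0.65 (9a). Its SD of 0.26 over segregants was 4.79 times the SD of 0.05 between cultures of 1 parent, beside a median of 2.69 over all rows and 7.44 for *INO1*. *OPI3* and *PSD1* kept within -0.46 and 0.35. *ITR1* had an SD of 0.17 over segregants and 0.28 between cultures of 1 parent, where S288C replicate 4 lay above the others. *CHO1* ranged from -0.30 to 0.54 with a median of 0.19, and 29 of the 30 segregants lay above all 10 parental arrays, where strain and set of arrays cannot be told apart, as stated above. The same holds for *INO4*, with 21 segregants above all parental arrays.

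**Figure D3:**
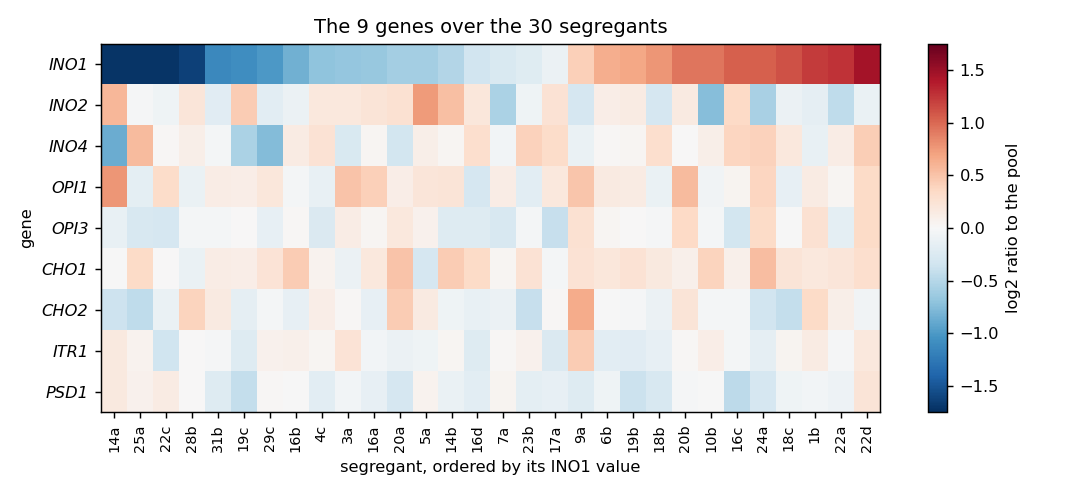
Log2 ratio to the pool (colour) of the 9 genes (rows) in 30 segregants (columns), ordered by *INO1*. Colour changes across the *INO1* row from -1.71 to 1.46, and no other row follows that order closely.

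To ask whether the other genes followed *INO1* over the segregants, which the stated choice of the list did not use, each was set against it with Spearman's rho. A row was called where rho exceeded 0.6 in size and its p, adjusted over the 4387 other rows, was under 0.05. None of the 8 was called, beside 0.137% of those rows. With so low a share, a lack of calls among 8 rows does not single out these genes. *INO2* had the value farthest from 0, and it was negative (rho = -0.40, permutation p = 0.03, adjusted p = 0.24; r = -0.42, permutation p = 0.022, and -0.37 without the 2 segregants farthest from the *INO1* median). In sign this matched the parents, where *INO2* stood low and *INO1* high in 59A, but the relation did not pass the adjustment. *INO4* had a rho of 0.35 (permutation p = 0.056, adjusted p = 0.32; r = 0.37, permutation p = 0.042, and 0.33 without 2 segregants). *OPI3* had 0.32 (permutation p = 0.082, adjusted p = 0.38; r = 0.42, permutation p = 0.021, and 0.41 without 2 segregants).

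For the remaining members the rho was 0.28 for *CHO1*, 0.15 for *CHO2*, 0.05 for *ITR1*, -0.01 for *OPI1* and -0.23 for *PSD1*, with adjusted p of 0.45 or more. The median rho was 0.10 over the 8 genes and -0.02 over all other rows. The central 95% of those rows reached from -0.50 to 0.44 and so held all 8. The share of rows with a lower rho was 93.7% for *INO4*, 91.6% for *OPI3*, 88.4% for *CHO1* and 72.4% for *CHO2*. It was 60.1% for *ITR1*, 52% for *OPI1*, 22.4% for *PSD1* and 7.64% for *INO2*. Among the 36 pairs of the 9 genes none was called, beside 3.03% of all rows set against any of them. The strongest pair was *INO4* with *OPI1* (rho = -0.48), with adjusted p of 0.068 and 0.037 according to the gene from which the rows were ranked, and a rho under the limit. *ITR1* and *PSD1* (rho = 0.43) and *OPI1* and *OPI3* (rho = 0.41) came next.

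**Figure D4:**
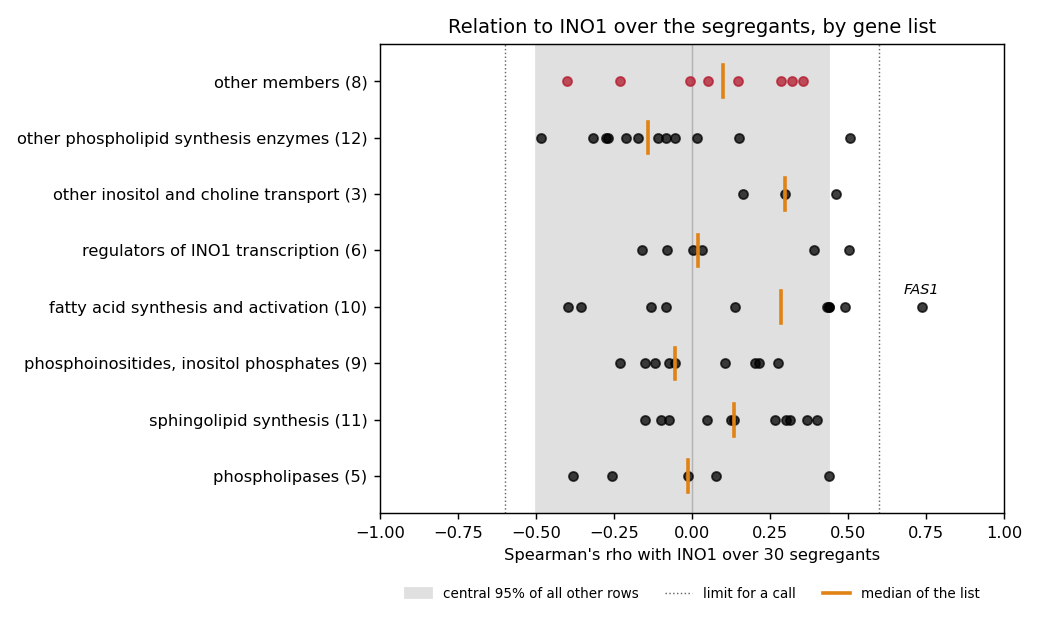
Spearman's rho with *INO1* over 30 segregants (horizontal axis) for the other 8 genes (red) and the measured genes of 7 lists (black, number in brackets). Orange bars are list medians, the grey band holds the central 95% of all other rows (-0.50 to 0.44) and dotted lines mark the limit of 0.6 for a call, which 1 list gene, *FAS1*, passed at 0.74.

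The genes most like *INO1* over the segregants came from outside the 9 genes, to which only 8 of the 4387 other rows belong. Whether they share the promoter element of the 9 genes was not tested. *FAS1* had the highest rho of the table (0.74, permutation p = 2e-05, adjusted p = 0.0088). Its r was 0.78 (permutation p = 1e-05, the smallest the permutations can give) and 0.74 without the 2 segregants farthest from the *INO1* median. In *FAS1* the segregants reached from -1.03 (22c) to 0.79 (22d), and these were segregants of the lowest and the highest end of *INO1*. Within the 18 segregants under the widest gap in *INO1* the rho was 0.43, and within the 12 over it 0.53.

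*YPR126C* followed with a rho of 0.73 (adjusted p = 0.0088), and it also stood higher in 59A, at 0.94 ± 0.08, against -0.41 ± 0.04 in S288C (SD, n = 5 each; limma adjusted p = 1e-09). Next came *GMC1* and the protein tyrosine phosphatase gene *LTP1* (rho = 0.66, adjusted p = 0.049 for both) and, not called, *LEE1* (rho = 0.63, adjusted p = 0.066). The lowest rho was that of *DAL82*, a positive regulator of allantoin degradation (-0.72, permutation p = 2e-05, adjusted p = 0.01), and then that of *TRS33*, a subunit of the TRAPP complexes of vesicle transport (-0.66, adjusted p = 0.049). *YMR151W*, *SNU66* and *OPY2* had -0.65, -0.65 and -0.64 and were not called. In total, 6 rows were called against *INO1*, 4 with a positive and 2 with a negative rho. Under and over the gap in *INO1* the rho was -0.70 and -0.32 for *DAL82*, 0.45 and 0.34 for *YPR126C*, 0.36 and 0.24 for *GMC1*, 0.56 and 0.06 for *LTP1*, and -0.69 and 0.14 for *TRS33*. For *LTP1* and *TRS33* the rho was thus smaller in size in the 12 segregants over the gap than in the 18 under it. That of *TRS33* also had the other sign there. Each side spans only part of the *INO1* range and holds few segregants, and the difference between the sides was not tested. Without segregants 14a and 25a, which share the lowest *INO1* value, none of the 6 was called, although *FAS1* kept a rho of 0.68 and *DAL82* one of -0.69. Segregant 22c, which equals 14a and 25a only after rounding, was not left out. With 1 spore of each ascus (21 segregants) 22 rows were called, among them *YPR126C*, *GMC1* and *LTP1* but not *FAS1* (rho = 0.67, adjusted p = 0.06).

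By list, the genes of fatty acid synthesis and activation had a median rho to *INO1* of 0.28, beside -0.02 over all rows, and *FAS1* was the 1 gene called of 10. The rho of these 10 genes ran from -0.40 to 0.74, so they did not all go the same way. *ACC1* and *FAS2* are named here outside the rule given further below. *ACC1*, the acetyl-CoA carboxylase, had a rho of 0.49 (adjusted p = 0.15), and *FAS2*, the alpha subunit of fatty acid synthase, and *OLE1* both had 0.44 (adjusted p = 0.19). Between the parents *OLE1* and *INO1* went opposite ways, 59A being below S288C in *OLE1* and above it in *INO1*. *ACC1* and *FAS2* differed little, by 0.01 and 0.06 (59A minus S288C). The other lists had medians from -0.14 (phospholipid synthesis enzymes) to 0.30 (inositol and choline transport, 3 genes), and no gene of theirs was called.

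The 9 genes were then set against 10 fermentation traits of the segregants, 90 relations in all. At the same limits 2 were called, both of *CHO2*, beside 1.16% of all rows over the 10 traits. *CHO2* rose with R70, the fermentation rate at 70% of the fermentation (rho = 0.63, permutation p = 0.00023, adjusted p = 0.01), beside 2.32% of rows called for this trait. It fell with the fermentation duration Fd (rho = -0.60, permutation p = 0.00048, adjusted p = 0.024), beside 1.89% of rows. With R50, the rate at mid-fermentation, the rho of *CHO2* was 0.56 (adjusted p = 0.051). These traits describe the same fermentations and are not independent of each other.

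The relations of *CHO2* were weaker on the linear scale. For R70 r was 0.50 (permutation p = 0.0045) and 0.45 without the 2 segregants farthest from the median of the trait, and for Fd r was -0.36 (permutation p = 0.052) and -0.47 without 2. The segregants of lowest *CHO2*, 25a (-0.45), 18c (-0.42) and 23b (-0.40), had R70 values of 0.95, 1.12 and 0.96 g CO2 per l and h. The segregants of highest *CHO2*, 9a (0.65), 20a (0.45) and 28b (0.39), had 1.45, 1.50 and 1.99 g CO2 per l and h. Fast and slow strains thus overlapped at middle values of *CHO2*, as with 14b, where *CHO2* was -0.07 and R70 2.05 g CO2 per l and h. With Pearson's r in place of rho, neither relation was called (adjusted p = 0.11 for R70 and 0.32 for Fd).

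*INO1* came nearest to a call for the assimilated nitrogen Nass, given here in mg per l from the size of the values. Its rho was 0.60, a little under the limit (permutation p = 0.00062, adjusted p = 0.035), and r was 0.51 (permutation p = 0.0048) and 0.38 without the 2 segregants farthest from the median of Nass. With 1 spore of each ascus it was called (rho = 0.69, adjusted p = 0.026), and without segregants 14a and 25a the rho was 0.50 (adjusted p = 0.16). The segregants of lowest *INO1*, 14a, 25a and 22c, had assimilated 238, 241 and 258 mg per l, and those of highest *INO1*, 22d, 22a and 1b, had assimilated 343, 342 and 343 mg per l. Departures from this order ran both ways. Segregants 9a and 20b had *INO1* at 0.42 and 0.94 but Nass at only 260 and 251 mg per l. On the low side, 28b, 31b and 4c, among others, had *INO1* at -1.63, -1.13 and -0.70 but Nass at 316, 328 and 342 mg per l. For the maximum rate Rmax the rho of *INO1* was 0.55 (permutation p = 0.0018, adjusted p = 0.049; r = 0.55, and 0.49 without 2 segregants).

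**Figure D5:**
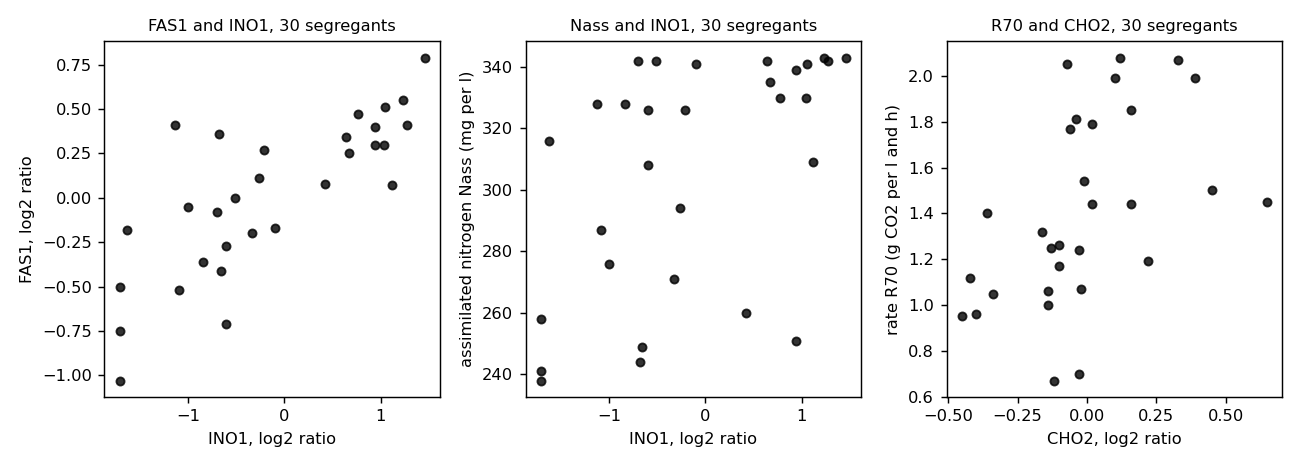
Each point is 1 of 30 segregants. Left, *FAS1* against *INO1*, both as log2 ratios (rho = 0.74). Middle, assimilated nitrogen Nass in mg per l against *INO1* (rho = 0.60). Right, the rate R70 in g CO2 per l and h against *CHO2* (rho = 0.63). The highest values of Nass lie near 343 mg per l.

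No other member was called for any trait. *INO2* had a rho of 0.46 with pyruvic acid (permutation p = 0.012, adjusted p = 0.076) and *INO4* one of 0.45 with the cell population Cp in 29 segregants (permutation p = 0.014, adjusted p = 0.33). Neither passed the adjustment. For succinic acid, glycerol, acetic acid and Cp no row of the table was called, so that a lack of calls there does not single out these genes.

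Of the 56 other list genes, 8 of 560 relations with traits were called (1.43%, beside the 1.16% of all rows given above). The phosphoinositide phosphatase gene *INP53* went against *CHO2* in direction, with a rho of -0.72 to R70 (adjusted p = 0.0012), -0.62 to R50 (adjusted p = 0.02) and 0.62 to Fd (adjusted p = 0.022). *PLB2* had a rho of 0.61 with Nass (adjusted p = 0.031). With pyruvic acid, positive calls were made for *ALE1* (rho = 0.61), the inositol monophosphatase gene *INM1* (0.61), *SCS2* (0.62) and the acyl-CoA synthetase gene *FAA1* (0.60), with adjusted p from 0.012 to 0.014, in a trait for which 106 rows were called with a positive and 33 with a negative rho.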

How the data were processed

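The deposited log2 ratios come from 2-colour arrays, which the authors normalized by print-tip loess within and by quantiles between arrays (R 2.9.2, limma), averaging 2 technical hybridisations. Values run from -2.32 to 2.09 on all 40 arrays, array medians lie between -0.026 and 0.028, and 53 values in 14 rows are missing. Of 4388 rows, 4125 were matched to the gene table of assembly R64. The 10 traits, in other units, are deposited as 1 value per strain, by the methods a mean over fermentations, except the amino acids, measured in 1 fermentation each. No trait value of a parent was used.

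For the parents, limma 3.58.1 (R 4.3.3; lmFit and eBayes) set 5 arrays against 5 at an adjusted p under 0.01. Spearman's rho over the segregants was given a p by t approximation, adjusted over all rows (Benjamini-Hochberg), as in the methods. Permutation p-values are two-sided with 100000 resamples (Python 3.11.15, scipy 1.17.1), and "without 2" leaves out the 2 segregants farthest from the median of *INO1* or of the trait. Both scans were tested on simulated data. The number of arrays limits the precision.

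The members and lists were chosen with earlier results of these data known. Named are all members, in each other list the 2 genes of largest parental difference and those called against *INO1* or a trait, and the 5 highest and 5 lowest rho to *INO1*. The list genes *ACC1* and *FAS2* were named outside this rule, as were *PSD2* and *HNM1*. Alternatives were other centring, scale, threshold, shrinkage and correlation, complete rows, a replicate block, the methods' t-test, left-out arrays or spores.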

Additional observations from a re-analysis of the deposited data

Results flagged for a closer look

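Of 69 groups of 5 parental cultures examined over 35 named genes, 2 held a culture whose gap to its nearest neighbour was large against the whole range of the group. Chance gives about 1 in 20, and 2 is no more than that. *CHO2* was 0.22 in 59A replicate 5, where the other 59A cultures lay between 0.11 and 0.14, so the culture that stands apart is the one farthest from S288C. *YPR126C* was -0.48 in S288C replicate 4, where the other S288C cultures lay between -0.40 and -0.39. For both genes the cultures of 59A and S288C did not overlap with these arrays included. Leaving out a culture cannot make separated groups overlap, so it would be no check.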

How the results depend on the processing

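The *INO1* difference between the parents was 1.82 with array medians subtracted, with complete rows and with the replicate number as a block, and 1.78 to 1.86 on leaving out each of 10 arrays. The count of members past the threshold, from which nothing is read, stayed at 2 higher and 1 lower in 59A under the 17 alternatives. Replicate numbers do not pair the cultures (r of same-numbered deviations from -0.29 to 0.39), and the block left 10 list genes higher and 7 lower in 59A. At an adjusted p under 0.05, 25 list genes were higher. Leaving out an array gave 11 to 13 higher and 7 to 9 lower. Against *INO1*, 13 rows were called with Pearson's r, 22 with 1 spore per ascus, 3 without ascus 16 (*FAS1*, *DAL82* and *YPR126C*) and, in an alternative added after seeing the data, 0 without the 2 segregants at the lowest value. No member was called against *INO1* under any of these. Member-trait calls numbered 0 with Pearson's r, 4 with no limit on rho (adding *INO1* with Nass and Rmax), 3 with 1 spore per ascus (adding *INO1* with Nass), 1 without ascus 16 and 1 without those 2 segregants (*CHO2* with R70 in both). The cause was not tested.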

Other observations

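Several of the 9 genes had far more company over the segregants than *INO1*. At the same limits *INO2* was called with 301 rows of positive and 134 of negative rho, the highest being *BFA1*, a gene of the mitotic exit checkpoint (rho = 0.89), and *OPI1* with 135 of positive and 232 of negative rho, led by the calcineurin regulator *RCN1* (rho = 0.85) and at the other end by the tRNA modification gene *MOD5* (rho = -0.82). *PSD1* had 65 positive and 89 negative calls and *INO4* 77 and 49. *CHO2* had 31 and 20, *OPI3* 9 and 16, *ITR1* 10 and 8, *CHO1* 7 and 8, and *INO1* 4 and 2. The order is not that of the spread over segregants, in which *INO1* stands first. These genes were singled out after their values were seen, and rows that share a large common pattern over the 30 segregants are not independent of each other.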
